A study of Mus musculus with 11 samples.

Results

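The G1/S and DNA replication genes are 40 mRNAs chosen by symbol from a table of 32868 named genes, and all 40 were found in it. They were measured by bulk RNA sequencing in primary neonatal lung fibroblasts of mice, sorted by flow cytometry, from animals lacking peptidylarginine deiminase 2 (PAD2KO) and from wild-type (WT) animals. Padi2 encodes the missing enzyme, which turns arginine residues of its protein substrates into citrulline. The 11 libraries were 2 PAD2KO (numbers 6 and 7) and 3 WT (5, 6 and 7) of batch 2, with 3 PAD2KO (1, 2 and 3) and 3 WT (1, 3 and 4) of batch 1. The labels give no strain, sex, exact age, sorting gate or construct of the deletion, do not say what the batches were, and name no treatment, although the series title speaks of basal and TNF-induced expression. They do not say which libraries came from separate animals, so the p-values reflect only how these libraries vary, part of which can be technical.

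Before a cell copies its DNA, the origin recognition complex with Cdc6 and Cdt1 loads the MCM helicase onto origins in G1 (licensing). Cyclin E with its kinase then helps to start S phase, Cdc45, Mcm10 and the GINS complex switch the helicase on, and polymerases, primase, the sliding clamp and enzymes that supply deoxynucleotides carry out the copying. Many of these genes are targets of E2F transcription factors, so their mRNAs are high in dividing cells around the G1/S boundary and low in resting ones.

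Libraries held 962633 to 1421243 counts of named genes, and the 40 genes took 0.177% to 0.321% of them. At these totals a gene with 0 counts can have a true level of as much as 2.11 to 3.12 CPM (counts scaled to a common library total), a limit of counting error only. Padi2 itself had 0 and 4 counts in the PAD2KO and 1, 2 and 0 in the WT libraries of batch 2, and 1, 0 and 4 in the PAD2KO and 0 in each of the 3 WT libraries of batch 1, so its mRNA is no check of the genotype labels. The 10 fibroblast markers had a count in every library and summed to 10428 to 12687 CPM in batch 2 and 16798 to 22874 CPM in batch 1. Epithelial markers summed to at most 48.4 CPM, with Sftpc and Nkx2-1 at 0 counts in all 11 libraries, and endothelial markers to at most 15.03 CPM. Leukocyte markers were at 17.7 to 76.4 CPM except in WT 7 of batch 2, which had 240.5 CPM.

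The fibroblasts carried mRNA of the whole replication machinery. By TPM, an abundance that also divides by transcript length, the highest mean levels over the 11 libraries were those of 3 deoxynucleotide enzymes, Tyms (thymidylate synthase) with 137 TPM, Rrm1 with 129.9 TPM and Rrm2 with 122 TPM, the large and small subunits of ribonucleotide reductase. The helicase subunits Mcm2 to Mcm7 lay close together, between 43.2 TPM for Mcm2 and 73.5 TPM for Mcm6. Orc1, the largest subunit of the origin recognition complex, was the lowest at 4.11 TPM, below Gins3 with 6.42 TPM and Mcm10 with 7.34 TPM. Of the 40 genes, 39 passed the filter on low counts. The exception was Gins1, a GINS subunit, with 3 to 18 counts a library: 7.39 and 14.3 CPM in PAD2KO against 6.65, 4.77 and 9.66 CPM in WT libraries of batch 2, and 9.63, 6.33 and 6.68 CPM in PAD2KO against 2.37, 2.16 and 5.63 CPM in WT libraries of batch 1.

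**Figure D1:**
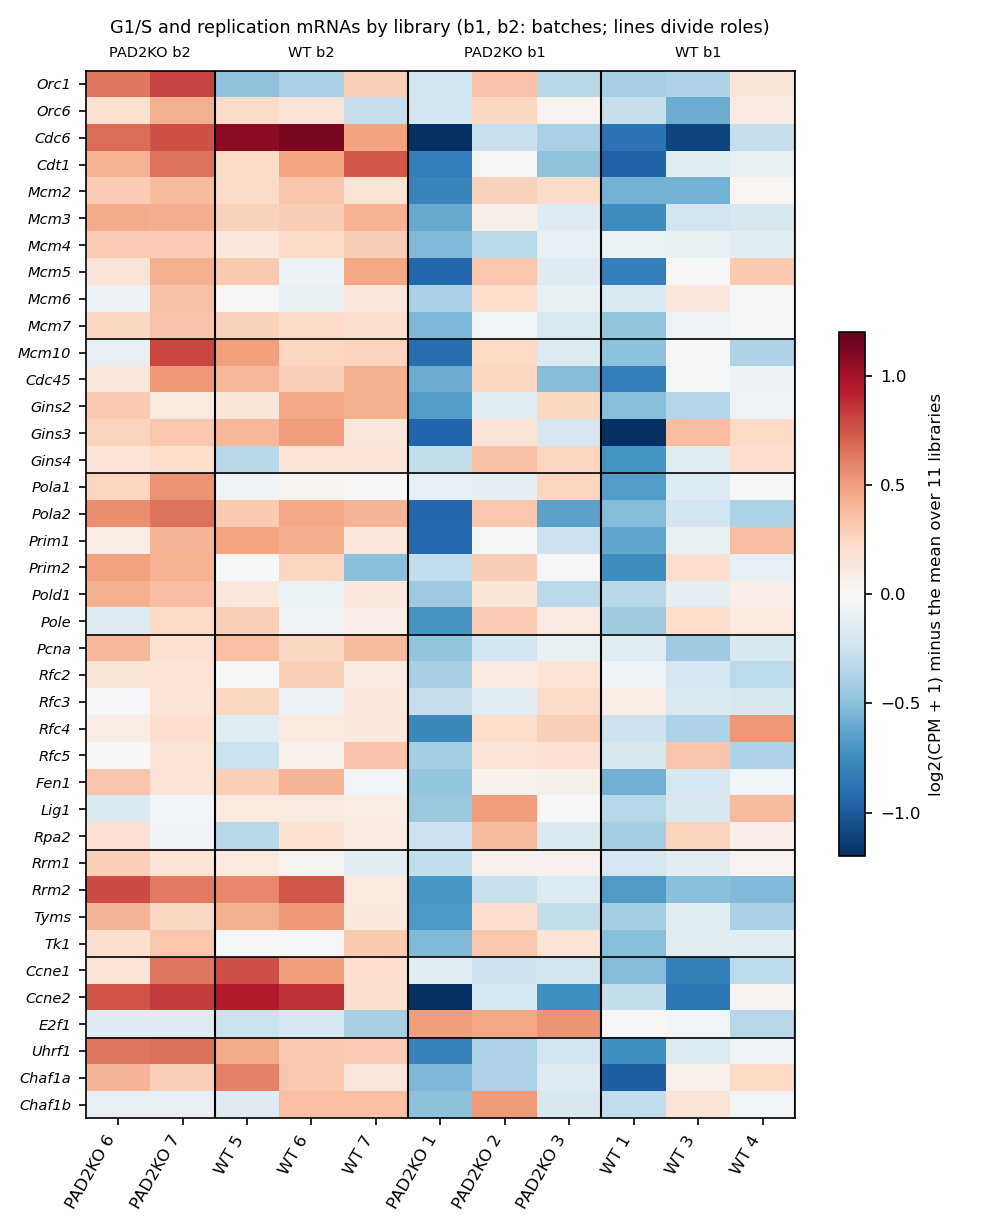
Level of each of the 39 tested genes in each library, as log2(CPM + 1) minus the gene's mean over the 11 libraries (colour, limited to 1.2 either way); columns are libraries by genotype and batch (b2, b1), rows are genes divided by role. Most rows are red in the 5 batch 2 libraries and blue in PAD2KO 1 and WT 1 of batch 1, while E2f1 is red in the 3 PAD2KO libraries of batch 1.

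Whether the loss of the enzyme altered these mRNAs was asked first, and no member passed the test between the genotypes. With edgeR's quasi-likelihood test and Benjamini-Hochberg adjustment over 9932 genes at 0.05, 0 of 39 members were called in PAD2KO against WT over both batches, where 0.191% of all genes were called. Within batch 2 the count was 0 against 3.11% of all genes, and within batch 1 it was 0 against 0.131%. DESeq2 called 0 members in each of these 3 comparisons as well. At an unadjusted p under 0.05, 2 members were higher and 0 lower over both batches, 1 higher and 0 lower within batch 2, and 1 higher and 0 lower within batch 1. Of all genes, 7.64% passed it in either direction over both batches, 14.4% within batch 2 and 5.49% within batch 1. The median log2 fold change of the 39 members was 0.04 over both batches, 0.07 within batch 2 and 0.06 within batch 1, beside -0.0017 over both batches, -0.0068 within batch 2 and -0.0011 within batch 1 for all genes.

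The intervals bound how large a genotype difference these libraries leave room for. Over both batches, 38 of 39 members had a 95% interval for the log2 fold change that lay within 1 of 0, and the median half-width was 0.34. Within batch 2 it was 37 of 39, with a median half-width of 0.49, and within batch 1 it was 36 of 39, with 0.43. An interval that holds 0 does not show that the genotypes were equal.

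E2f1, the transcription factor that drives many G1/S genes, had the smallest p over both batches, with a log2 fold change of 0.43 (95% interval 0.09 to 0.77, adjusted p = 0.492). It measured 23.0 and 23.0 CPM in PAD2KO against 21.4, 22.2 and 19.3 CPM in WT libraries of batch 2, and 36.9, 35.9 and 37.9 CPM in PAD2KO against 26.0, 25.2 and 20.1 CPM in WT libraries of batch 1. All PAD2KO libraries lay above all WT libraries of their batch, and the gap was wider in batch 1, with a log2 fold change of 0.63 (95% interval 0.21 to 1.05, adjusted p = 0.436), than in batch 2, with 0.12 (95% interval -0.40 to 0.65, adjusted p = 0.893). The difference between those fold changes did not pass the interaction test at -0.50 (95% interval -1.18 to 0.17, adjusted p = 0.598). Pola1, the catalytic subunit of DNA polymerase alpha, came next over both batches with 0.35 (95% interval 0.05 to 0.65, adjusted p = 0.586). Its levels were 47.6 and 58.0 CPM in PAD2KO against 38.4, 40.5 and 39.7 CPM in WT libraries of batch 2, and 36.9, 36.6 and 47.5 CPM in PAD2KO against 24.5, 35.3 and 39.4 CPM in WT libraries of batch 1. The batch 2 groups did not overlap, and WT 1 stood apart as the lowest library. By TPM, Pola1 averaged 39.7 in PAD2KO and 12.7 in WT libraries of batch 2. In batch 1 it averaged 21.4 TPM in PAD2KO and 22.4 TPM in WT libraries. Its deposited effective lengths differed up to 4.11-fold between libraries, and CPM does not allow for them.

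Orc1 had the smallest p within batch 2, at 1.00 (95% interval 0.17 to 1.84, adjusted p = 0.219). It had 14.0 and 15.9 CPM in PAD2KO against 5.91, 6.35 and 10.7 CPM in WT libraries of batch 2, and 7.23, 11.3 and 6.68 CPM in PAD2KO against 6.31, 6.48 and 9.66 CPM in WT libraries of batch 1. The batch 2 groups were apart and the batch 1 groups overlapped, but with 8 to 20 counts a library the estimate was wide, and the interaction was 0.82 (95% interval -0.34 to 1.99, adjusted p = 0.622). Ccne1, a cyclin E gene, was among the 2 smallest p-values within batch 1, at 0.34 (95% interval -0.07 to 0.75, adjusted p = 0.92), and was at -0.11 within batch 2. In batch 2, 10 of 39 members had every PAD2KO library above every WT library, where 15.5% of all genes did. For 1 member (Lig1, a DNA ligase) every PAD2KO library was below, where 15.7% of all genes were. The 10 were Orc1, Mcm3, Mcm4, Pola1, Pola2, Prim2, Pold1, Rrm1, E2f1 and Uhrf1. In batch 1 only Ccne1 and E2f1 did so, where 5.41% of all genes did.

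By role, the genotype fold changes over both batches were small. The 10 licensing and MCM genes ranged from -0.07 to 0.58 on the log2 scale, with Orc1 at the top. The 8 genes for the clamp, its loader, strand joining and single-strand binding stayed between -0.03 and 0.11; these are Pcna, Rfc2 to Rfc5, Fen1, Lig1 and Rpa2. All 4 deoxynucleotide genes had positive estimates, 0.03 to 0.24, with Rrm2 at 0.21 (95% interval -0.02 to 0.43, adjusted p = 0.7). The 3 chromatin-copying genes, Uhrf1 and the histone chaperone subunits Chaf1a and Chaf1b, were between -0.13 and 0.07. No member passed the test of a genotype difference that differs between batches. In the interaction test 0 of 39 were called, 0 at an unadjusted p under 0.05 and 0 by DESeq2. Of all genes, edgeR called 1.62%, and 11.6% had an unadjusted p under 0.05. The interaction with the smallest p was that of Uhrf1, at 0.45 (95% interval -0.04 to 0.93, adjusted p = 0.482). Intervals for the interaction were wide, with a median half-width of 0.67, and 29 of 39 lay within 1 of 0.

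**Figure D2:**
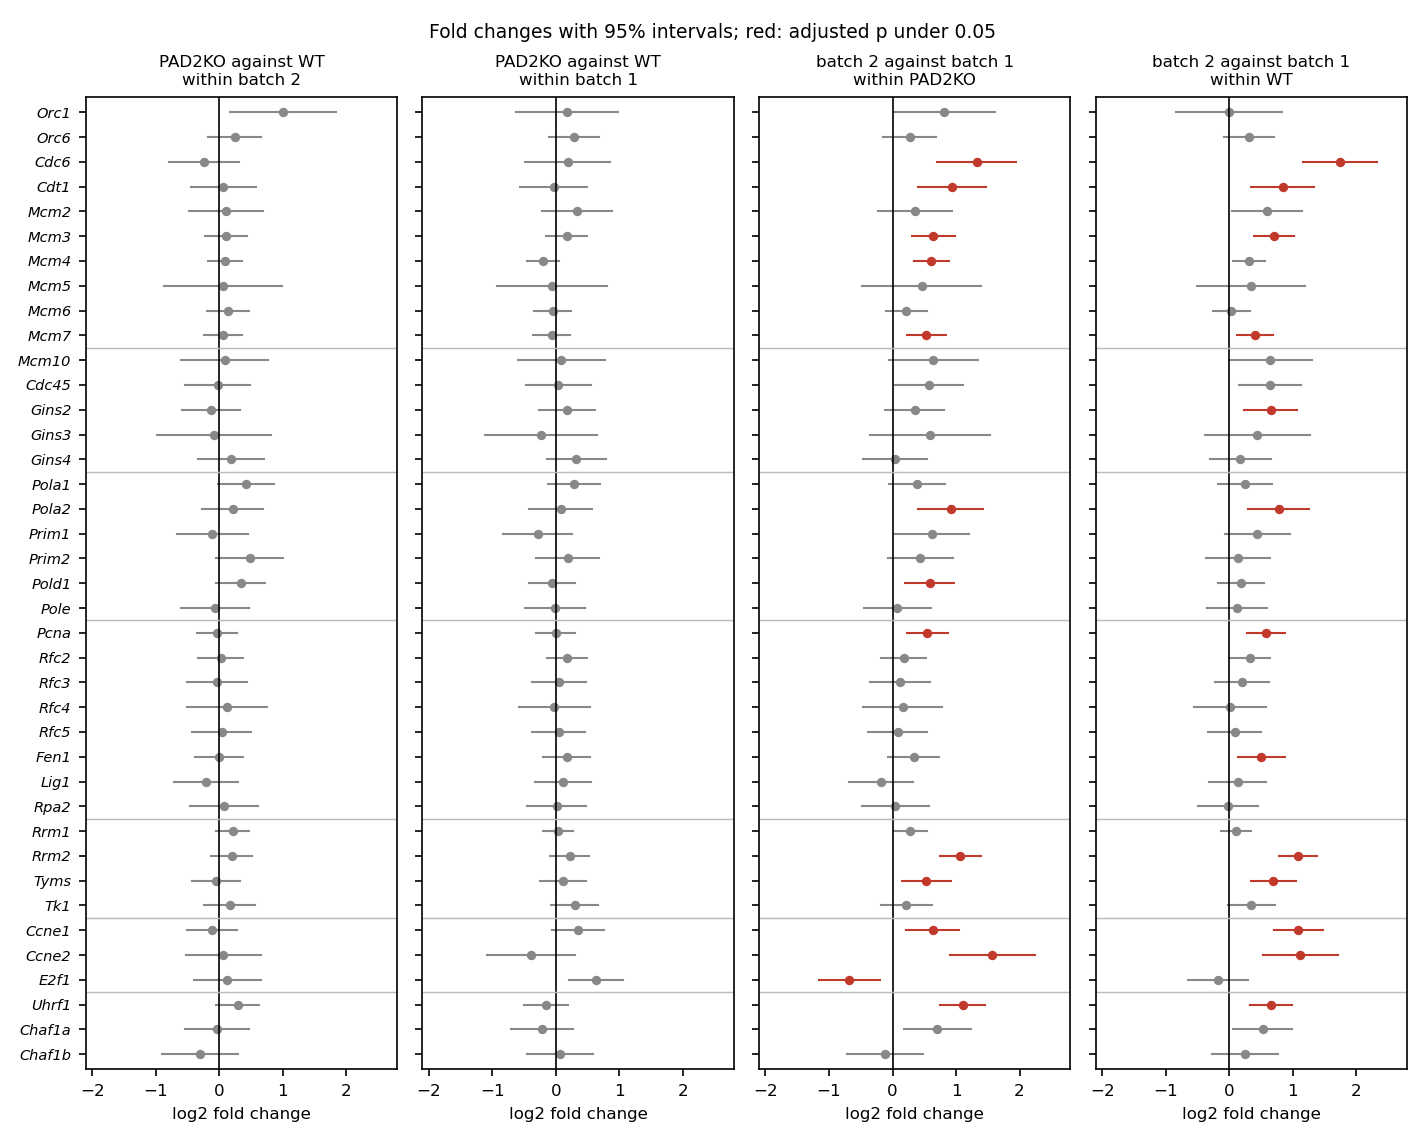
Log2 fold change of each of the 39 tested genes (points, x axis) with its 95% interval (bars) in 4 comparisons: PAD2KO against WT within batch 2 and within batch 1, and batch 2 against batch 1 within PAD2KO and within WT; red marks an adjusted p under 0.05 (edgeR). No gene is red in the 2 genotype panels, 14 are red within PAD2KO and 13 within WT.

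The larger difference lay between the batches, and it went the same way in both genotypes. In batch 2 against batch 1, 13 of 39 members were higher and 1 was lower within PAD2KO, where edgeR called 9.52% of all genes higher and 9.13% lower. Within WT 13 were higher and 0 lower, where it called 11.7% of all genes higher and 10.6% lower. At an unadjusted p under 0.05 the WT counts were 18 higher and 0 lower, beside 1688 higher and 1595 lower of all 9932 genes. DESeq2 called 9 members higher and 0 lower within PAD2KO and 10 higher and 0 lower within WT. Shares of all genes, here and below, are those of edgeR, and none is given for DESeq2. The median log2 fold change of the members was 0.46 within PAD2KO and 0.35 within WT, against -0.02 within PAD2KO and -0.0040 within WT for all genes. In each genotype 36 of 39 estimates were positive, where 48.6% of all genes were positive within PAD2KO and 49.7% within WT. The members called higher in both genotypes were 11: Cdc6, Cdt1, Mcm3, Mcm7, Pola2, Pcna, Rrm2, Tyms, Ccne1, Ccne2 and Uhrf1. They made up 78.6% of the members called within PAD2KO and 84.6% of those called within WT. Among all genes, 1118 were called with the same sign in both, 60.3% of the PAD2KO and 50.5% of the WT calls. Of the 11 members, Mcm7 lost its WT call and Pcna, Tyms and Ccne1 their PAD2KO calls with DESeq2. With offsets for the deposited transcript lengths, only Rrm2 and Uhrf1 of the 11 stayed called in both genotypes. In bulk RNA, a smaller share of dividing cells and less of these mRNAs per cell cannot be told apart, and neither can the batches from anything that was handled together with them.

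Single libraries moved these counts. Within PAD2KO the count of 14 called members was 6 without PAD2KO 7, 8 without PAD2KO 1 and 9 without PAD2KO 3 or without PAD2KO 6, and the one lower call, E2f1, was lost in each of those 4 fits. Within WT the count of 13 was 8 without WT 1. With PAD2KO 1 and WT 1 both left out, a choice made after seeing the data, 9 members were called within PAD2KO and 10 within WT, all higher. With offsets for the deposited transcript lengths the counts were 4 within PAD2KO (Pola2, Pold1, Rrm2 and Uhrf1) and 8 within WT (Cdc6, Cdt1, Mcm3, Pcna, Rrm2, Ccne1, Uhrf1 and, called with these offsets alone, Mcm10). Of all 9932 genes, these offsets left 864 called in either direction within PAD2KO and 1356 within WT. Counts over all genes without each library are not given here.

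Among the licensing genes, Cdc6 and Cdt1, the pair of factors that load the helicase, were called in both genotypes with the MCM subunits Mcm3 and Mcm7. Cdc6 had 32.0 and 34.2 CPM in batch 2 and 8.03, 16.2 and 14.8 CPM in batch 1 PAD2KO libraries, a log2 fold change of 1.32 (SE 0.31, adjusted p = 0.00248). In WT libraries Cdc6 had 42.8, 44.5 and 27.9 CPM in batch 2 and 10.3, 8.64 and 16.1 CPM in batch 1, a log2 fold change of 1.74 (SE 0.28, adjusted p = 2.5e-05), the largest of any member within WT. Every batch 2 library was above every batch 1 library, and both calls held with any 1 library left out. Cdt1 averaged 49.2 ± 5.71 CPM in batch 2 and 25.3 ± 7.78 CPM in batch 1 PAD2KO libraries (SD, n = 2 and 3), with libraries at 45.2 and 53.2 and at 18.5, 33.8 and 23.8 CPM. WT libraries had 39.1, 46.9 and 56.9 CPM of Cdt1 in batch 2 and 16.6, 30.2 and 31.4 CPM in batch 1, so the batches were apart in each genotype. Its fold changes were 0.94 (SE 0.26, adjusted p = 0.0113) within PAD2KO and 0.85 (SE 0.24, adjusted p = 0.0107) within WT; the calls were lost without PAD2KO 1 (0.77) or PAD2KO 7 (0.81), and without WT 1 (0.60).

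Mcm3, a subunit of the helicase ring, had 160.1 and 159 CPM in batch 2 and 77.1, 123 and 105 CPM in batch 1 PAD2KO libraries, a log2 fold change of 0.64 (SE 0.16, adjusted p = 0.00689). In WT libraries it had 142, 145 and 158 CPM in batch 2 and 69.4, 100.03 and 103 CPM in batch 1, a log2 fold change of 0.70 (SE 0.15, adjusted p = 0.00119). No batch 1 library reached a batch 2 library; the PAD2KO call was lost without PAD2KO 7, at 0.64. The 6 ring subunits, which act as 1 complex, differed in their calls, and the differences between them were not tested. Mcm7 was called in both genotypes (0.53 within PAD2KO and 0.41 within WT). Its PAD2KO call was lost without PAD2KO 1 (0.41) or PAD2KO 7 (0.47), and its WT call without WT 1 (0.27), WT 5 (0.39) or WT 6 (0.41) and with DESeq2 (0.40). Mcm4 was called within PAD2KO with 0.61 (SE 0.14, adjusted p = 0.00162) but not within WT with 0.32 (SE 0.12, adjusted p = 0.0643); the interaction of Mcm4 was 0.30 (95% interval -0.08 to 0.67, adjusted p = 0.557). Mcm2, Mcm5 and Mcm6 were not called in either genotype in the main fit, with 0.36, 0.46 and 0.22 within PAD2KO and 0.59, 0.35 and 0.03 within WT. Some alternative fits did call Mcm2 within WT, where its batches did not overlap. These were no filter (0.58), the libraries of the comparison alone (0.59), and fits without WT 4 (0.82), without PAD2KO 1 (0.59) or without both PAD2KO 1 and WT 1 (0.49). Orc1 and Orc6, subunits of the origin recognition complex, were not called either. Orc1 was at 0.81 (95% interval 0.02 to 1.61, adjusted p = 0.154) within PAD2KO and -0.01 (95% interval -0.84 to 0.83, adjusted p = 0.992) within WT.

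Of the 5 tested genes that switch the helicase on, Gins2 was at 0.35 (SE 0.23, adjusted p = 0.311) within PAD2KO, not called, and was called within WT with 0.65 (SE 0.21, adjusted p = 0.0212), a call lost without WT 1 (0.55), WT 3 (0.62), WT 6 (0.59) or WT 7 (0.62) and with DESeq2 (0.65). Mcm10, Cdc45, Gins3 and Gins4 had positive estimates in both genotypes, between 0.04 and 0.65, and none was called in the main fit. Cdc45 was called within WT with no filter (0.63), with the libraries of the comparison alone (0.64) and without PAD2KO 1 (0.64) or PAD2KO 2 (0.64). Within PAD2KO it was called without PAD2KO 2 (0.93). Among the 6 polymerase and primase genes, Pola2, the accessory subunit of polymerase alpha, was higher in both genotypes. PAD2KO libraries had 81.3 and 86.6 CPM of Pola2 in batch 2 and 28.1, 69.0 and 34.9 CPM in batch 1, a log2 fold change of 0.91 (SE 0.24, adjusted p = 0.0112), and PAD2KO 2 was high for its group. WT libraries had 68.7, 76.2 and 73.0 CPM of it in batch 2 and 37.9, 46.8 and 41.9 CPM in batch 1, a log2 fold change of 0.78 (SE 0.23, adjusted p = 0.0168). The call within PAD2KO was lost without PAD2KO 3 (0.77), PAD2KO 6 (0.96) or PAD2KO 7 (0.86), and that within WT without WT 1 (0.70), WT 4 (0.77) or WT 6 (0.74). Its partner Pola1 was not called (0.39 (95% interval -0.05 to 0.82, adjusted p = 0.224) within PAD2KO and 0.26 (95% interval -0.17 to 0.68, adjusted p = 0.422) within WT). Pold1, the catalytic subunit of polymerase delta, was called within PAD2KO with 0.58 (SE 0.19, adjusted p = 0.0297) and was at 0.18 (SE 0.18, adjusted p = 0.527) within WT. The call was lost without PAD2KO 1 (0.48), PAD2KO 3 (0.51), PAD2KO 6 (0.55) or PAD2KO 7 (0.60) and with DESeq2 (0.60). Prim1, Prim2 and Pole, 2 primase subunits and the catalytic subunit of polymerase epsilon, were not called.

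Pcna, the sliding clamp, was the member of the clamp and strand-joining group that was higher in both genotypes. It had 102 and 88.2 CPM in batch 2 and 55.4, 66.2 and 72.7 CPM in batch 1 PAD2KO libraries, a log2 fold change of 0.55 (SE 0.16, adjusted p = 0.0159); the call was lost without PAD2KO 1 (0.46) or PAD2KO 6 (0.44) and with DESeq2 (0.56). In WT libraries Pcna had 99.7, 92.1 and 101 CPM in batch 2 and 70.2, 57.6 and 67.6 CPM in batch 1, with 0.58 (SE 0.15, adjusted p = 0.0035), a call that held in every setting that was tried. Fen1, the nuclease that trims Okazaki fragments, was at 0.34 (SE 0.20, adjusted p = 0.256) within PAD2KO, not called, and was called within WT with 0.51 (SE 0.18, adjusted p = 0.0431). Its WT call was kept in 5 of 11 fits that leave out 1 library, was at 0.36 without WT 1, and was lost with DESeq2 (0.50). The clamp loader genes Rfc2 to Rfc5, Lig1 and Rpa2 were not called, with estimates between -0.18 and 0.33 over both genotypes.

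Of the subunits of ribonucleotide reductase, the enzyme that makes deoxynucleotides, Rrm2 was higher in batch 2 and Rrm1 was not called. Rrm2, the small subunit whose synthesis is confined to dividing cells, had 311 and 277 CPM in batch 2 and 111, 149 and 160.3 CPM in batch 1 PAD2KO libraries, a log2 fold change of 1.07 (SE 0.16, adjusted p = 2.5e-05). In WT libraries Rrm2 had 268, 302 and 195 CPM in batch 2 and 112, 127 and 124 CPM in batch 1, a log2 fold change of 1.08 (SE 0.15, adjusted p = 4.4e-06). The batches did not overlap in either genotype, and both calls held in every setting that was tried. Rrm1, the large subunit, had 375 and 343 CPM in batch 2 and 250.5, 317 and 318 CPM in batch 1 PAD2KO libraries, and the fold change of 0.28 (95% interval 0.02 to 0.54, adjusted p = 0.128) was not called. WT libraries had 332, 315 and 279 CPM of Rrm1 in batch 2 and 267, 281 and 316 CPM in batch 1, with overlapping groups and 0.10 (95% interval -0.13 to 0.34, adjusted p = 0.58). Within WT the 95% interval of Rrm2, 0.78 to 1.39, did not meet that of Rrm1; the difference between the genes was not tested. Tyms, which makes thymidylate, had 122 and 109.6 CPM in batch 2 and 57.0, 106 and 75.7 CPM in batch 1 PAD2KO libraries, with 0.53 (SE 0.19, adjusted p = 0.0492). In WT libraries Tyms had 124, 133 and 101 CPM in batch 2 and 68.6, 83.5 and 70.0 CPM in batch 1, with 0.69 (SE 0.17, adjusted p = 0.00404). The batches were apart in both genotypes, and the WT call held with any 1 library left out but not with length offsets (0.69). The PAD2KO call of Tyms was kept in 2 of 11 fits that leave out 1 library, at 0.35 without PAD2KO 1, and was lost with DESeq2 (0.54). Tk1, the thymidine salvage kinase, was not called (0.22 within PAD2KO and 0.35 within WT).

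Of the 3 G1/S regulators, both cyclin E genes were higher in batch 2 in each genotype and E2f1 was not. Ccne2 had 35.3 and 37.3 CPM in batch 2 and 6.42, 17.6 and 11.9 CPM in batch 1 PAD2KO libraries, a log2 fold change of 1.57 (SE 0.32, adjusted p = 8.8e-04) and the largest of any member within PAD2KO. In WT libraries Ccne2 had 40.6, 38.1 and 23.6 CPM in batch 2 and 16.6, 10.8 and 20.9 CPM in batch 1, a log2 fold change of 1.12 (SE 0.29, adjusted p = 0.00493). The batches did not overlap, but within WT the fold change was 0.47 with transcript length offsets and was not called; the deposited effective length of Ccne2 was 940 bases in WT 4 and 2667 to 2694 bases in the other 5 WT libraries. Ccne1 had 57.5 and 80.2 CPM in batch 2 and 46.6, 42.9 and 43.8 CPM in batch 1 PAD2KO libraries, with 0.63 (SE 0.20, adjusted p = 0.0274). WT libraries had 88.6, 73.1 and 59.05 CPM of Ccne1 in batch 2 and 35.5, 28.8 and 41.1 CPM in batch 1, with 1.09 (SE 0.19, adjusted p = 6.9e-05). All 5 batch 2 libraries were above all 6 batch 1 libraries for both cyclin genes. The PAD2KO call of Ccne1 was lost without PAD2KO 7 (0.36), PAD2KO 2 (0.61) or PAD2KO 3 (0.62) and with DESeq2 (0.64). E2f1 was lower in batch 2 within PAD2KO, -0.68 (SE 0.24, adjusted p = 0.044), and was at -0.17 (SE 0.23, adjusted p = 0.653) within WT. Its PAD2KO call was kept in 3 of 11 fits that leave out 1 library, at nearly the same size in all, and was lost with DESeq2 (-0.67).

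Uhrf1, which binds newly copied DNA and brings in the maintenance methyltransferase, had 132 and 135 CPM in batch 2 and 48.2, 65.5 and 72.0 CPM in batch 1 PAD2KO libraries, a log2 fold change of 1.10 (SE 0.17, adjusted p = 3.1e-05). In WT libraries it had 116, 106 and 105 CPM in batch 2 and 50.5, 75.6 and 81.3 CPM in batch 1, a log2 fold change of 0.66 (SE 0.16, adjusted p = 0.00294). The batches did not overlap and both calls held in every setting that was tried. Chaf1a and Chaf1b were not called in the main fit, at 0.71 and -0.12 within PAD2KO and 0.53 and 0.25 within WT. Chaf1a was called within PAD2KO with another scaling (0.72), no filter (0.72), the libraries of the comparison alone (0.71), and without WT 1 (0.71), WT 4 (0.71) or WT 7 (0.71). Within WT it was called without WT 4 (0.75).

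**Figure D3:**
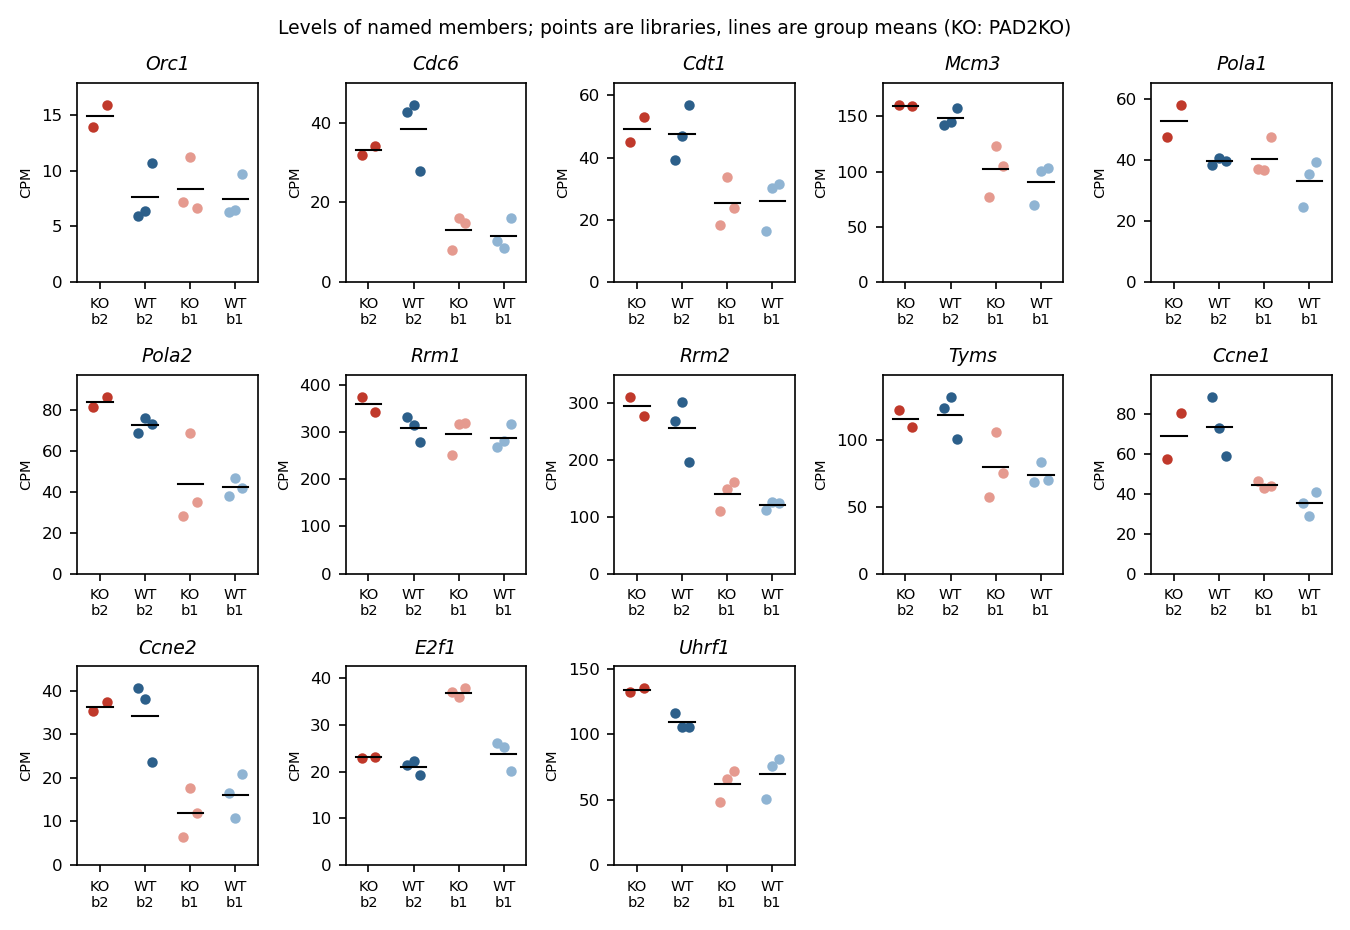
CPM (y axis, from 0) of 13 members in each library (points) with the group mean (line), by genotype and batch (x axis; KO, PAD2KO; b2, batch 2; b1, batch 1). Cdc6, Cdt1, Mcm3, Rrm2, Ccne1, Ccne2 and Uhrf1 have all 5 batch 2 libraries above all 6 batch 1 libraries, Rrm1 and Pola1 do not, and E2f1 is highest in the PAD2KO libraries of batch 1.

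Counted by overlap, 22 of 39 members had both batch 2 libraries above all 3 batch 1 libraries within PAD2KO, where 22.4% of all genes did. Only 1 (E2f1) had them below, where 23.7% of all genes did. Within WT 19 of 39 were above, where 18.7% of all genes were, and 0 below, where 17.8% were. For 10 members, Cdc6, Cdt1, Mcm3, Mcm4, Mcm7, Pcna, Rrm2, Ccne1, Ccne2 and Uhrf1, all 5 batch 2 libraries lay above all 6 batch 1 libraries, where 8.85% of all genes did. Markers of other cell types and of fibroblasts differed between the batches too. Of the 9 fibroblast markers tested, whose sums are given above, 2 were called higher and 5 lower in batch 2 within PAD2KO, and 0 higher and 4 lower within WT. For these and the other markers, the edgeR shares of all genes were 9.52% higher and 9.13% lower within PAD2KO, and 11.7% higher and 10.6% lower within WT. The 8 smooth muscle and pericyte markers, of which 6 were tested, summed to 4011 to 5123 CPM in PAD2KO and 1550 to 1939 CPM in WT libraries of batch 2, and to 5059 to 7782 CPM in PAD2KO and 6753 to 7220 CPM in WT libraries of batch 1. None was called higher in batch 2, with 2 called lower within PAD2KO and 5 within WT. The 5 mesothelial markers, of which 4 were tested, summed to 50.1 to 91.1 CPM in PAD2KO and 52.6 to 90.8 CPM in WT libraries of batch 2, and to 90.8 to 255 CPM in PAD2KO and 200.4 to 348 CPM in WT libraries of batch 1, with 1 called lower in batch 2 within PAD2KO and 3 within WT. Krt18, a keratin and the 1 epithelial marker tested, was called higher in batch 2, with 1.01 (SE 0.33, adjusted p = 0.0358) within PAD2KO and 0.83 (SE 0.30, adjusted p = 0.0468) within WT, but not by DESeq2. In PAD2KO against WT within batch 2, edgeR called 4 smooth muscle and pericyte markers higher, 1 fibroblast marker higher and 2 lower, and 1 mesothelial marker higher. It called 3.11% of all genes in either direction there. DESeq2 gave the same counts for the first 2 lists but called 0 mesothelial markers. The share of counts in rows with no gene symbol was 5.004% to 6.40% in batch 2 and 3.80% to 4.90% in batch 1. The part of these measures in the differences between batches, or in the values between genotypes, was not tested.

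Within batch 1, a library of each genotype stood low. PAD2KO 1 was the lowest of its 3 libraries for 35 of 39 members and WT 1 of its 3 for 28 of 39. The 40 genes summed to 3186 and 3301 CPM in PAD2KO and 3046, 3076 and 2911 CPM in WT libraries of batch 2, and to 1798, 2708 and 2475 CPM in PAD2KO and 1913, 2294 and 2461 CPM in WT libraries of batch 1. The lowest sum of batch 2 was thus above the highest of batch 1, whichever genotype it came from. The 25 G2/M and mitosis genes, which act after S phase, were low in the same libraries, with sums of 1572, 2805 and 2822 CPM in PAD2KO 1, 2 and 3 and 1724, 2394 and 2817 CPM in WT 1, 3 and 4.

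Some further S-phase genes were called in batch 2 against batch 1, and no mitosis gene was. Of 46 further replication and S-phase genes, 41 were tested, and in batch 2 against batch 1 edgeR called 6 higher and 0 lower within PAD2KO and 9 higher and 1 lower within WT. The higher calls were 14.6% within PAD2KO, where 9.52% of all genes were called higher, and 22% within WT, where 11.7% were; the members stood at 33.3% in each. DESeq2 called 3 higher (7.32%) and 0 lower within PAD2KO and 5 higher (12.2%) and 1 lower within WT, with no DESeq2 share of all genes beside them. Dut, which clears dUTP from the nucleotide pool, averaged 103 ± 6.95 CPM in batch 2 and 46.4 ± 0.865 CPM in batch 1 PAD2KO libraries (SD, n = 2 and 3), a log2 fold change of 1.14 (SE 0.16, adjusted p = 4.5e-06). In WT libraries Dut averaged 105 ± 3.14 CPM in batch 2 and 39.03 ± 3.28 CPM in batch 1 (SD, n = 3 each), with 1.43 (SE 0.15, adjusted p = 1.7e-08). Wdhd1, a replisome scaffold, was higher too, with 1.01 (SE 0.26, adjusted p = 0.00715) within PAD2KO and 1.25 (SE 0.26, adjusted p = 7.1e-04) within WT, and so was the histone mRNA binding protein gene Slbp, with 0.49 (SE 0.17, adjusted p = 0.0378) within PAD2KO and 0.67 (SE 0.15, adjusted p = 0.00148) within WT. Orc3, a further subunit of the origin recognition complex, was the one lower call, within WT, with -0.58 (SE 0.18, adjusted p = 0.0167). In PAD2KO against WT edgeR and DESeq2 each called 0 of the 41 over both batches, within batch 2 and within batch 1, and 2 were higher and 0 lower at an unadjusted p under 0.05 in each of these.

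None of the 25 G2/M and mitosis genes was called in batch 2 against batch 1, by edgeR or by DESeq2, in either genotype. At an unadjusted p under 0.05, 1 was higher and 0 lower within PAD2KO, and 0 were higher and 2 lower within WT. Of all genes, 30.4% within PAD2KO and 33.1% within WT passed it in either direction. The median log2 fold change of the mitosis genes was 0.17 within PAD2KO and -0.08 within WT, beside 0.46 within PAD2KO and 0.35 within WT for the members. The proliferation marker Mki67 was at 0.11 (95% interval -0.32 to 0.55, adjusted p = 0.771) within PAD2KO and -0.29 (95% interval -0.69 to 0.12, adjusted p = 0.325) within WT, and the mitotic cyclin Ccnb1 at 0.25 (95% interval -0.24 to 0.73, adjusted p = 0.516) within PAD2KO and -0.12 (95% interval -0.58 to 0.33, adjusted p = 0.74) within WT. Taking for each library the mean centred log2 CPM of the members minus that of the mitosis genes gave 0.12 and 0.06 in PAD2KO and 0.25, 0.37 and 0.37 in WT libraries of batch 2, against -0.02, -0.15 and -0.39 in PAD2KO and -0.05, -0.24 and -0.31 in WT libraries of batch 1. The value was positive in all 5 batch 2 libraries and negative in all 6 of batch 1, PAD2KO 1 and WT 1 included. Both scores are centred over the same 11 libraries, so 0 is only their mean. The nearest values across it were 0.06 in PAD2KO 7 and -0.02 in PAD2KO 1, and the lists were chosen with earlier results known. In PAD2KO against WT within batch 2, 24 of 25 mitosis genes had positive estimates with a median of 0.35, and 0 were called by edgeR or DESeq2, with 2 higher and 0 lower at an unadjusted p under 0.05.

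**Figure D4:**
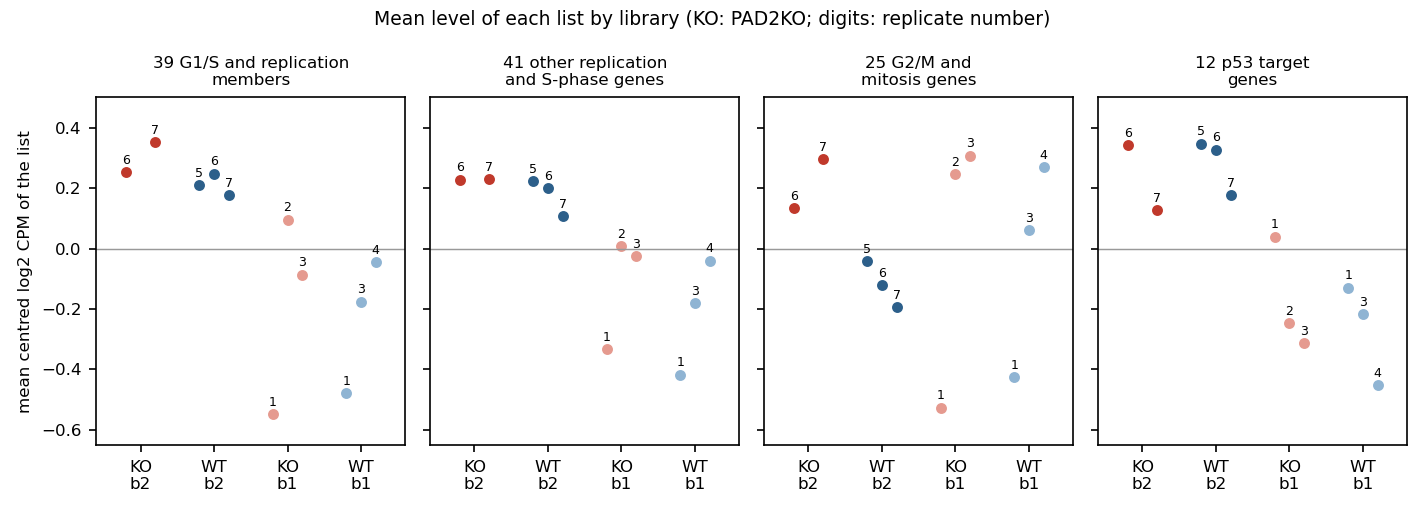
Mean of log2 CPM, centred on each gene's mean over the 11 libraries, for 4 gene lists (y axis) in each library (points, digits are replicate numbers), by genotype and batch (x axis; KO, PAD2KO; b2, batch 2; b1, batch 1). The 39 members are at 0.18 to 0.35 in all 5 batch 2 libraries and at -0.55 to 0.10 in all 6 batch 1 libraries, while the 25 G2/M and mitosis genes run from -0.19 to 0.30 in batch 2 and from -0.53 to 0.31 in batch 1.

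Regulators of G1 were called in both directions, at shares that within WT lay near those of all genes. Of 30 such genes, 25 were tested, and in batch 2 against batch 1 edgeR called 6 higher (24%, beside 9.52% of all genes) and 2 lower (8%, beside 9.13%) within PAD2KO, and 4 higher (16%, beside 11.7%) and 3 lower (12%, beside 10.6%) within WT; DESeq2 called 5 higher and 1 lower within PAD2KO and 4 higher and 3 lower within WT. Ccnd1, the cyclin that starts the G1 programme, averaged 78.4 ± 5.24 CPM in batch 2 and 23.2 ± 7.90 CPM in batch 1 PAD2KO libraries (SD, n = 2 and 3), with 1.76 (SE 0.24, adjusted p = 5.6e-06). In WT libraries Ccnd1 averaged 66.8 ± 20.6 CPM in batch 2 and 35.7 ± 2.41 CPM in batch 1 (SD, n = 3 each), with 0.88 (SE 0.21, adjusted p = 0.00314). Myc, a transcription factor of growth, was higher in both genotypes as well, with 0.96 (SE 0.19, adjusted p = 4.3e-04) within PAD2KO and 0.82 (SE 0.18, adjusted p = 9.6e-04) within WT. Cdkn2c, an inhibitor of the Ccnd1 partner kinases, was lower, with -1.93 (SE 0.37, adjusted p = 3.3e-04) within PAD2KO and -1.74 (SE 0.33, adjusted p = 2.1e-04) within WT. Cdk6, such a kinase, passed the genotype test within batch 2, as no other tested gene of the S-phase, mitosis, G1 and p53 lists did, where it averaged 118 ± 2.73 CPM in PAD2KO and 68.5 ± 7.17 CPM in WT libraries (SD, n = 2 and 3), a log2 fold change of 0.78 (SE 0.15, adjusted p = 0.00291). In batch 1 Cdk6 averaged 97.2 ± 3.95 CPM in PAD2KO and 122 ± 18.2 CPM in WT libraries (SD, n = 3 each), with -0.32 (SE 0.13, adjusted p = 0.726), and the interaction was called at 1.10 (SE 0.20, adjusted p = 0.00235).

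Most of the 12 p53 target genes, which include brakes on G1/S, were called higher in batch 2. edgeR called 8 higher and 0 lower within PAD2KO (66.7%, where 9.52% of all genes were called higher) and 9 higher and 0 lower within WT (75%, where 11.7% were), and DESeq2 called 6 higher and 0 lower within PAD2KO and 9 higher and 0 lower within WT. Of the others, 2 had negative estimates within PAD2KO, down to -0.41 and with 1 lower at an unadjusted p under 0.05, and 1 within WT, at -0.16. Mdm2, the ubiquitin ligase that keeps p53 low, had 0.93 (SE 0.12, adjusted p = 3.4e-06) within PAD2KO and 1.03 (SE 0.11, adjusted p = 5.9e-08) within WT, and Cdkn1a, the p21 inhibitor of cyclin E kinase that is also among the 30 G1 regulators, had 0.44 (SE 0.14, adjusted p = 0.0292) within PAD2KO and 0.83 (SE 0.13, adjusted p = 1.7e-05) within WT. No p53 target was called in PAD2KO against WT over both batches by edgeR or DESeq2, and 0 passed an unadjusted p under 0.05.

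The members' promoters, of called and uncalled genes alike, were searched for E2F words. RefSeq windows from 250 bases before to 50 after the transcription start were held for 32 of the 40 genes, on build GRCm38.p6, whereas the submitters' notes name GRCm39. The words TTTCCCGC, TTTCGCGC, TTTGCCGC and TTTGGCGC, on either strand and with overlaps counted, were in the windows of 13 of the 32 genes (40.6%). Among all genes with a window, whether or not they were measured in these fibroblasts, it was 704 of 27025 (2.61%). The shorter word CCAAT was in 19 of the 32 (59.4%), against 41.1% of all. Of the 11 members called in both genotypes, 10 had a window and 5 of them (50%) held an E2F word, namely Cdc6, Cdt1, Mcm3, Mcm7 and Uhrf1. Of the members called in neither genotype, 19 had a window and 7 (36.8%) held one. A match is a description of letters and not a site of binding.

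Shown here are windows of 4 genes called in both genotypes that hold an E2F word and of Rrm2, called in both, that holds none; each runs 5′ to 3′ along the gene's strand with its E2F words in capitals. The Cdc6 window is chr11:98907901-98908200 on the plus strand. The Cdt1 window is chr8:122567765-122568064 on the plus strand. The Mcm3 window is chr1:20820263-20820562 on the minus strand. The Uhrf1 window is chr17:56304063-56304362 on the plus strand. The Rrm2 window is chr12:24708004-24708303 on the plus strand. Uhrf1 had a further window upstream with no E2F word.
Cdc6: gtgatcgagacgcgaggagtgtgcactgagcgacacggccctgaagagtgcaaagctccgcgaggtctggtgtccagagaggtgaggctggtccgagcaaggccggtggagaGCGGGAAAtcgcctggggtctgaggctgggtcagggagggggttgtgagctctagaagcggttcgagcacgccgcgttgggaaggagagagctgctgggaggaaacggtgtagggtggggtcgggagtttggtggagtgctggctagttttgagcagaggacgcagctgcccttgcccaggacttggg
Cdt1: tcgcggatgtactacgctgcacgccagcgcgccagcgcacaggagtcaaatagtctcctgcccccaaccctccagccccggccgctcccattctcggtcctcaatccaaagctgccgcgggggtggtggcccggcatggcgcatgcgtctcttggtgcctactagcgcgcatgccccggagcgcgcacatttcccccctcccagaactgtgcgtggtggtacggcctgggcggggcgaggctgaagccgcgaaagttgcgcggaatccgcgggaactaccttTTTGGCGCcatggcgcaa
Mcm3: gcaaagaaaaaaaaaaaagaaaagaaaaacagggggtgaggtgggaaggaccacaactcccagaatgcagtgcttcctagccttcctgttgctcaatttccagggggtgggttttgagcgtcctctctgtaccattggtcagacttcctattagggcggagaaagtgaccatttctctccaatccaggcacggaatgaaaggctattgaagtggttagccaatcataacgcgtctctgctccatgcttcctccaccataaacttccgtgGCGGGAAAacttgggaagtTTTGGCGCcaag
Uhrf1: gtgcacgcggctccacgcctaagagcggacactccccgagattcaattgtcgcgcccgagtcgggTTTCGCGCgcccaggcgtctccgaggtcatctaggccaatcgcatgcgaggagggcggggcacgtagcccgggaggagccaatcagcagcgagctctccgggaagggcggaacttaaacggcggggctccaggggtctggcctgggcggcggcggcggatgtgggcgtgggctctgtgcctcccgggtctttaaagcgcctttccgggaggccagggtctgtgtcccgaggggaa
Rrm2: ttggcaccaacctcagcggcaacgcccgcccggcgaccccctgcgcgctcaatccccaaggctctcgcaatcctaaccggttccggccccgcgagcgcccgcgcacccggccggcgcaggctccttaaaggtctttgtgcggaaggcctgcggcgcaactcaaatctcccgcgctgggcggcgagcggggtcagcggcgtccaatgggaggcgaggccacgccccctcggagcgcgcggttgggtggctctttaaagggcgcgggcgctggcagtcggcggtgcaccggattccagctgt

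In Cdc6 the word TTTCCCGC is on the opposite strand, with its middle at -134.5 bases from the start. Cdt1 has TTTGGCGC at 35.5 bases after the start, and Mcm3 has TTTCCCGC on the opposite strand 22.5 bases and TTTGGCGC 41.5 bases after it. Uhrf1 has TTTCGCGC at -181.5 bases from the start belonging to the window shown. The fold changes between batches of these 4 genes, 0.64 to 1.32 within PAD2KO and 0.66 to 1.74 within WT, take in those of Rrm2, 1.07 within PAD2KO and 1.08 within WT.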

How the data were processed

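The measured values were gene-level RNA-seq values of 11 libraries. The authors deposited estimated counts, TPM values (length-scaled abundances that sum to 1000000 with unnamed rows) and effective transcript lengths, a signal column per library, in a single table. The submitters' processing notes name Salmon 1.3.2, fastp, DESeq2 1.46.0 and build GRCm39; annotation and use of strand are not given in the sources used here. Per the labels' protocols, libraries were of the SmartSeq2 type (SMARTer chemistry), with no molecular identifiers named, so intervals cover counting and library spread only.

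Of 56065 rows, 23133 had no symbol (3.80% to 6.40% of counts) and were left out. The rest were summed to 32868 symbols and rounded to whole counts. Totals were 962633 to 1421243. edgeR 4.0.16 in R 4.3.3 (TMM, filterByExpr on genotype, robust quasi-likelihood test) left 9932 genes, with Benjamini-Hochberg adjustment over all of them at 0.05. PAD2KO against WT over both batches used batch and genotype terms. The other 5 comparisons used 1 mean per genotype and batch over all 11 libraries, with a common biological coefficient of variation of 0.115. CPM values use TMM-scaled totals. Alternatives were other scalings, DESeq2 1.42.0, no filter, length offsets, the libraries of a comparison alone, no batch term, a replicate block and leaving out libraries. The fit was also run on simulated counts, drawn without the batch differences of these data. The outcome of that run is not given here, and no result above rests on it.

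Members and gene lists were chosen with earlier results of these data known. Given in every library were the members past the threshold in a comparison (at most the 8 largest by fold change), the 2 with the smallest p and the 3 with the highest TPM; of other lists, up to 3 by p. Gins1, the other members called and Slbp, Orc3, Mki67, Ccnb1, Cdkn1a and Krt18 were named beyond that rule with their values in view.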

Additional observations from a re-analysis of the deposited data

Results flagged for a closer look

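Pola1 in WT 1 was at 24.5 CPM, far below the other 5 WT libraries, which had 35.3 to 40.5 CPM. It was the 1 value that stood apart among 28 groups of a gene and a genotype in which the lowest and highest library were compared with the rest, and such a flag arises by chance in about 5% of groups.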

How the results depend on the processing

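Members called in PAD2KO against WT, over both batches or within either batch, and in the interaction stayed at 0 under every alternative that was run, DESeq2, length offsets and each left-out library included. The replicate block gave 0 members called as well. Same-numbered libraries did not deviate together from their group means (correlations 0.05, 0.01, 0.03 and 0.0015 for numbers 1, 3, 6 and 7). In groups this small that cannot exclude pairing, on which the labels are silent, and the main fits used none. The medians of the members moved by less than the spread between libraries (SD 0.216) in all 116 alternative values. For the medians between batches, 0.46 within PAD2KO and 0.35 within WT, this leaves the sign unchanged. The bound is wider than the genotype medians, 0.04 to 0.07, and the interaction median, -0.0046. It therefore says little of the sign or size of those.

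Within PAD2KO, the 14 members called in batch 2 against batch 1 became 4 with length offsets, 9 with DESeq2 and 9 with PAD2KO 1 and WT 1 both left out (chosen after seeing the data), and 6 to 15 with each library left out. Within WT the 13 became 8 with length offsets and 8 to 15 with each library left out. Of the values of single genes, 586 were the same, 51 lost the call and 5 changed sign, all within WT and none called: Rrm1 (-0.092) and Pola1 (-0.63) with length offsets, and Orc1 with DESeq2 (0.0010) and, among left-out libraries where it ran from -0.12 to 0.16, without WT 5 (0.16) and WT 6 (0.10). Effective lengths of Pola1 differed up to 4.11-fold between libraries; the cause of the other changes was not tested. Length offsets ended the PAD2KO calls of Cdc6 (1.26), Cdt1 (1.02), Mcm3 (0.50), Mcm4 (0.38), Mcm7 (0.51), Pcna (0.54), Tyms (0.70), Ccne1 (0.63), Ccne2 (1.75) and E2f1 (-0.68) and the WT calls of Mcm7 (0.24), Gins2 (0.83), Pola2 (0.80), Fen1 (0.45), Tyms (0.69) and Ccne2 (0.47), and added Mcm10 (1.37) within WT.

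Counts over all genes moved more. Outside left-out libraries they were 2 to 142 (19 as reported) over both batches, 89 to 529 (309) within batch 2, 2 to 58 (13) within batch 1, 26 to 323 (161) for the interaction, 864 to 1926 (1853) between batches within PAD2KO and 1356 to 2385 (2212) within WT, with the lowest under length offsets and the highest with no filter. With 3 to 18 counts of Gins1 and 8 to 20 of Orc1 a library, depth limits what can be said of them.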
